A study of Mus musculus with 78 samples.

Results

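The translation initiation factor genes of the mouse were examined in single blastomeres of 4-cell and 8-cell embryos. They were taken as the protein-coding genes of RefSeq whose symbol is Eif followed by a digit, off chromosomes X and Y. The rule matched 53 genes, and 51 of them are listed in both gene tables, which share 13604 genes. Eif3j1 and Eif3j2, the genes of a loosely bound eIF3 subunit, are in neither table and were not analysed here. The rule left out 3 genes on the sex chromosomes, among them both copies of Eif2s3, the third subunit of eIF2.

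The embryos came from a cross of a strain homozygous for CAG-Brainbow2.1 at the Rosa26 locus with a strain homozygous for the CAG-cre/Esr1 transgene, so that every embryo of both stages carried 1 copy of each. CAG is a broadly active promoter, and the Cre protein fused to part of the estrogen receptor enters the nucleus when its ligand is added. Embryos of superovulated females were collected as 2-cell embryos at 46 hours post injection, were given 4-Hydroxytamoxifen for 2 hours, and grew on in KSOM medium to the 4-cell or the 8-cell stage. No embryo without the transgenes or without the drug enters these data, and embryos were taken for sequencing when at least some of their cells fluoresced. Values are FPKM (fragments scaled by gene length and by the library's total) of Smart-seq2 libraries of single blastomeres, 24 from 4-cell and 26 from 8-cell embryos. By the study's account these came from 6 4-cell and 4 8-cell embryos, so blastomeres share embryos and counts of blastomeres are not counts of embryos. The column names do not say which embryo or lineage a blastomere came from. Each stage was therefore treated as 1 sample without replicates, no test between the stages was run, and each value is given as the lowest, the median and the highest over blastomeres.

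Initiation begins when eIF2 carries the initiator tRNA to the small ribosomal subunit, where eIF3, eIF1, eIF1A and eIF5 help to place it on a start codon. The eIF4F complex (the cap-binding protein eIF4E, the scaffold eIF4G and the RNA helicase eIF4A) brings in the messenger RNA, and eIF5B joins the large subunit. Control acts at both entries. Kinases phosphorylate eIF2 and so block its recycling by the exchange factor eIF2B, and 4E-binding proteins hold eIF4E away from eIF4G. Early embryos live on messenger RNA stored by the oocyte until their own genome takes over, and oocytes are known to use variant factors such as eIF4E1B.

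The 4 initiation factor genes whose median was at least 2-fold higher at the 8-cell stage are Eif4b, Eif2b5, Eif4g1 and Eif4a2, whose values are given further on. The 10 bases before and the 20 bases from the start of their curated transcript are shown because 3 of these genes lie close together on chromosome 16 and because a stretch of C and T at a transcript's start is a known mark of messenger RNAs whose translation responds to mTOR signalling. Sequences are from RefSeq on GRCm38.p6, which mm10 is built on, all 4 on the plus strand, 5′ to 3′, and capitals mark the longest run of at least 5 bases of C or T that begins with C.
Eif4b (chr15:102073763-102073792): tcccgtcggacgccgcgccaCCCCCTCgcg
Eif2b5 (chr16:20498807-20498836): CTCTTTCTCTCCCTgcaactacaccttcgc
Eif4g1 (chr16:20672717-20672746): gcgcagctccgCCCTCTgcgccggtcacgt
Eif4a2 (chr16:23107458-23107487): gaaaccccgtaggagcagggcggccgagga
Predicted transcripts begin earlier, so the curated start lies 22 bases inside the gene as annotated for Eif2b5 and 7 for Eif4g1. The run was 14 bases long in Eif2b5, 7 in Eif4b and 6 in Eif4g1, and Eif4a2 had none in this window. None of the 3 runs began at the curated start. That of Eif2b5 began 10 bases before it, at the edge of the window, that of Eif4g1 began 1 base and that of Eif4b 10 bases after it. Such a run is common, counting a gene if any of its annotated starts had it. It was found in 16 of the 40 initiation factor genes that the promoter table holds and in 39.6% of all its 27025 genes. Among genes with a median of at least 10 FPKM at a stage it was found in 12 of 32 initiation factor genes and in 41.2% of 3728 genes.

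The letters CACGTG, an E-box to which factors such as MYC can bind, were searched from 250 bases before to 50 bases after each annotated start. They were found in 10 of these 40 genes, where a gene counted if any of its starts had them. The letters read the same on both strands. Among all 27025 genes with a promoter sequence the share was 8.09%. Among genes with a median of at least 10 FPKM it was 9 of 32 initiation factor genes and 13.8% of the 3728. For each of the 3 eIF4F subunits, the E-box of a gene that has it is shown in capitals, in the direction of the gene. Eif4e and Eif4g1 are on the plus strand and Eif4a1 is on the minus strand. The paralogues Eif4a2 and Eif4e2 were searched as well and did not have the letters. The E-box of Eif4e lies inside the gene as annotated, which begins at 138526191, and before a start further in.
Eif4e (chr3:138527028-138527057): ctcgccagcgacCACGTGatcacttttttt
Eif4a1 (chr11:69672595-69672624): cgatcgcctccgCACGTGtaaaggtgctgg
Eif4g1 (chr16:20672661-20672690): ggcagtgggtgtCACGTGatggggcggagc
The 10 genes had a median log2 ratio between the stages of 0.26, and the 30 without the letters 0.01, which is a description of these libraries. For the other letters, searched on both strands, the shares were given no test either. GGGCGG was found in 29 of the 40 against 38.2% of all genes, CCGGAAG in 15 against 9.93%, CCAAT in 16 against 41.1% and AAGATGG in 4 against 7.28%. With a median of at least 10 FPKM on both sides, the counts were 25 of 32 against 69.1%, 12 against 28.3%, 12 against 43.9% and 4 against 10.6% in the same order. The median log2 ratio with and without the letters was 0.09 and 0.00 for GGGCGG and -0.17 and 0.12 for CCGGAAG. It was -0.09 and 0.13 for CCAAT, and 0.26 and 0.04 for AAGATGG. For the run of C and T it was -0.04 and 0.13.

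The fragments behind the FPKM values were estimated, in units of 1e6, at 6.87 to 16.9 for the 4-cell and 2.33 to 21.7 for the 8-cell blastomeres. A 4-cell blastomere had 3009 to 8276 genes above 1 FPKM and an 8-cell blastomere 3548 to 8078. At the 4-cell stage 3 blastomeres and at the 8-cell stage 2 had under 0.7 of their stage's median number, and these gene-poor blastomeres were left out in turn. Of 10 markers of the oocyte and early embryo 9 are listed, Oog1 being absent, and 8 and 6 of the 9 had a median above 1. Dppa3, the highest, had a median of 3658 FPKM at the 4-cell and 3260 FPKM at the 8-cell stage. Bmp15 was at a median of 0.164 FPKM at the 4-cell stage. At the 8-cell stage Nlrp5 was at 0.122 FPKM, and Gdf9 and Bmp15 were at 0. Of 8 markers of cumulus and granulosa cells, 3 and 2 are listed at the stages, all with a median of 0, and their sum reached at most 3.06 and 1.66 FPKM in a blastomere. No blood marker is listed, and the 1 listed fibroblast marker, Col1a1, reached at most 0.0115 FPKM. Most but not all listed markers of the labelled tissue were thus above 1 FPKM, and the markers of the other cell types were at or near 0.

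Initiation factor genes stood among the more abundant transcripts. Of the 51, 45 had a median above 1 FPKM at the 4-cell stage and 43 at the 8-cell stage, against 49.7% and 45.8% of all genes in both tables. A median of at least 100 FPKM was reached by 26 members at the former stage and 27 at the latter, against 7.12% and 6.92% of all genes. Their summed FPKM made up 1.82% to 2.68% of a 4-cell blastomere's total, with a median of 2.18%, and 2.18% to 2.79% of an 8-cell blastomere's, with a median of 2.52%. The 12 eIF3 genes held the largest part of that sum, with a median share of 31.95% in 4-cell and 32.4% in 8-cell blastomeres. The eIF4F and helicase genes followed with 20.6% and 22.3%, and the eIF2 kinases held 0.221% and 0.131%.

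**Figure D1:**
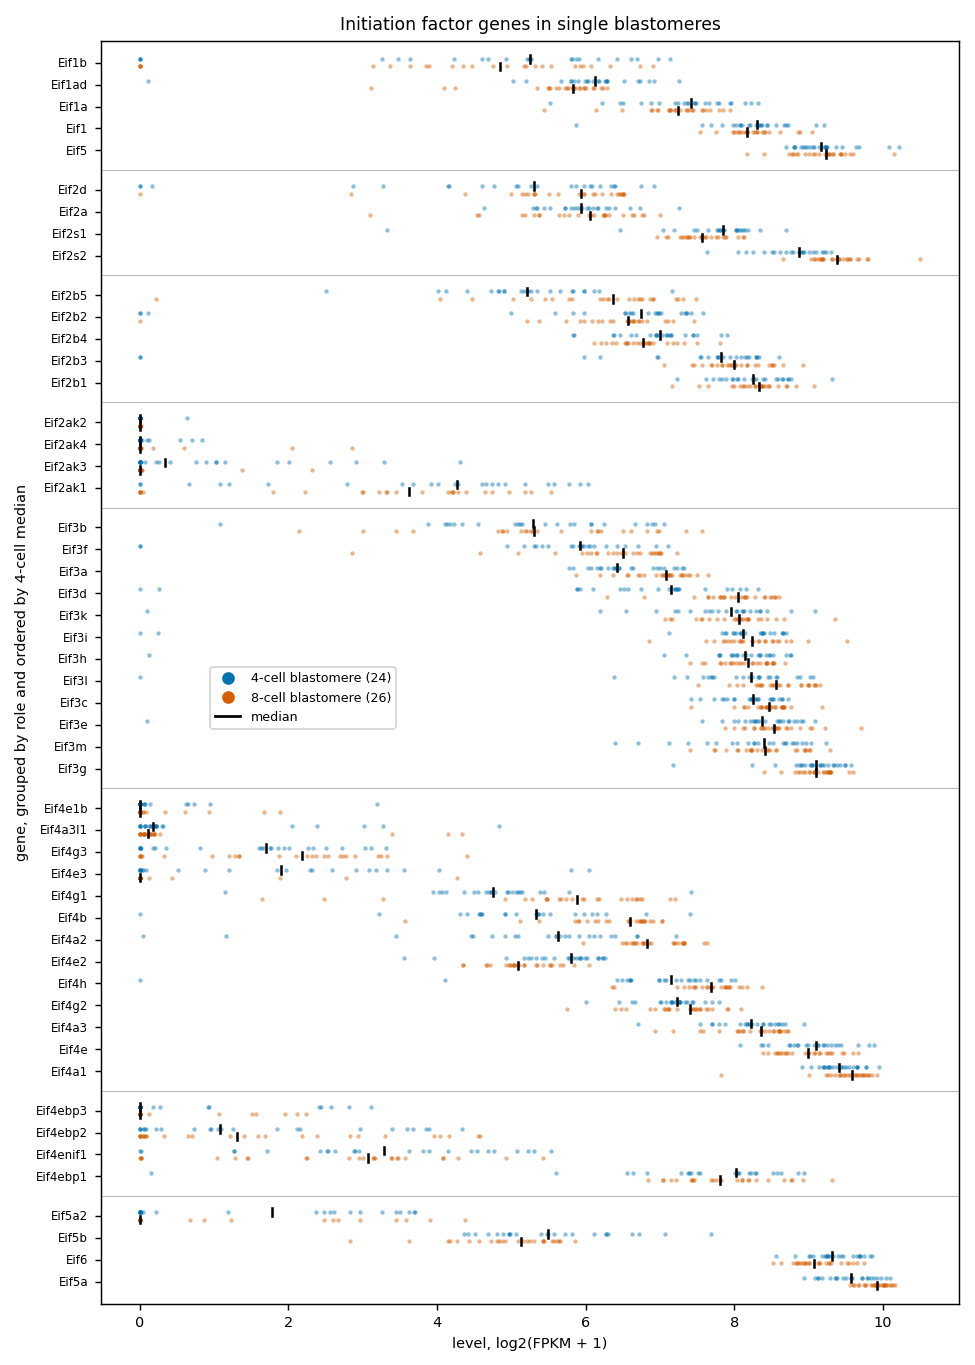
Level of each of the 51 listed initiation factor genes in every blastomere, as log2(FPKM + 1), grouped by role from start codon selection at the top to the late steps at the bottom. Blue points are the 24 4-cell and orange points the 26 8-cell blastomeres, and black bars are medians. The 12 eIF3 genes have medians of 38.4 FPKM or more at both stages, with some 4-cell values at 0, whereas the medians of 3 of the 4 eIF2 kinases and of Eif4e1b lie below 1 FPKM.

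Across the stages, 4 of the 51 genes had a median at least 2-fold higher at the 8-cell stage and 2 a median at least 2-fold lower, on the log2(FPKM + 1) scale. The background over all 13604 genes was 5.23% higher and 9.78% lower by this rule, beside 7.84% and 3.92% of the members. Many of those genes are too low to pass. Over the 7131 genes with a median of at least 1 FPKM at a stage, 9.97% were higher and 18.7% lower, beside 8.89% and 4.44% of the 45 such members. The median log2 ratio, 8-cell over 4-cell, was 0.04 over the members and 0.00 over all genes. The tables of the stages were deposited separately, and every level set across them rests on FPKM being comparable between them. No gene of the 51 had ranges that were separate between the stages. The share of all genes with separate ranges is not given here, so this is not shown to be a trait of the members.

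Eif4b, which stimulates the helicase eIF4A, was at 0.00, 39.4 and 167 FPKM (lowest, median and highest) at the 4-cell stage and at 10.9, 95.4 and 130 FPKM at the 8-cell stage. The ratio of the medians was 2.42 and the log2 ratio 1.26. Of the 26 8-cell blastomeres 24 lay above the 4-cell median, while the 4-cell values at both ends, 0.00 and 167 FPKM, came from gene-poor blastomeres. Leaving these out gave 8.27 to 111 FPKM, and the lowest 8-cell value became 33.6 FPKM. The gene lies on chromosome 15 from 102073773 to 102097173.

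Eif4a2, a paralogue of the main helicase gene, was at 0.0310, 48.5 and 147 FPKM at the 4-cell stage and at 61.1, 112 and 197 FPKM at the 8-cell stage, with a log2 ratio of 1.19. All 26 8-cell blastomeres lay above the 4-cell median, and 8 lay above the highest 4-cell blastomere. It lies on chromosome 16 from 23107468 to 23114132.

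Eif2b5, the catalytic subunit of the exchange factor eIF2B, was at 4.70, 36.1 and 143 FPKM at the 4-cell stage and at 0.168, 81.7 and 178 FPKM at the 8-cell stage, with a log2 ratio of 1.16. Of the 26 8-cell blastomeres 22 lay above the 4-cell median, and the lowest was gene-poor, the next being 15.5 FPKM. It lies on chromosome 16 from 20498795 to 20509325.

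Eif4g1, the main scaffold of eIF4F, was at 1.21, 26.0 and 170 FPKM at the 4-cell stage and at 2.13, 58.1 and 146 FPKM at the 8-cell stage, with a log2 ratio of 1.13. Both the lowest and the highest 4-cell value came from gene-poor blastomeres. Without these, the 4-cell range narrowed to 14.4 to 42.4 FPKM, and 19 of the 24 8-cell blastomeres left lay above it. The lowest of these 24 was 4.57 FPKM. It lies on chromosome 16 from 20672720 to 20692883.

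The next largest ratios, below the 2-fold rule, were on the higher side Eif3d with a log2 ratio of 0.90, Eif3a with 0.66 and Eif2d with 0.64. On the lower side they were Eif4e2 with -0.71 and Eif2ak1 with -0.63. Without the gene-poor blastomeres Eif2d came to 0.17 and Eif2ak1 to -0.30, and without the 8-cell columns named NA Eif2ak1 came to -0.95. Eif3d passed the rule under 3 alternatives, with each blastomere scaled by its size factor, with the listed genes scaled to the same total, and with the mean of log2(FPKM + 1). The 4 genes higher by 2-fold kept their place without the gene-poor blastomeres and when any 1 blastomere was left out, with a log2 ratio of at least 1.07 in every one of the 50 runs. With the mean of log2(FPKM + 1) in place of the median, Eif2b5 came to 0.82 and Eif4g1 to 0.93. Without the 8-cell columns named NA, Eif4b came to 0.97, Eif2b5 to 1.02, Eif4g1 to 1.07 and Eif4a2 to 1.15. Those 5 columns held Eif4b at 104 to 130 FPKM, above the median of 95.4 FPKM over all 8-cell blastomeres. They held Eif2b5 at 95.0 to 158 FPKM, also above its 8-cell median of 81.7 FPKM. Whether they share an embryo is not given by their names.

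**Figure D2:**
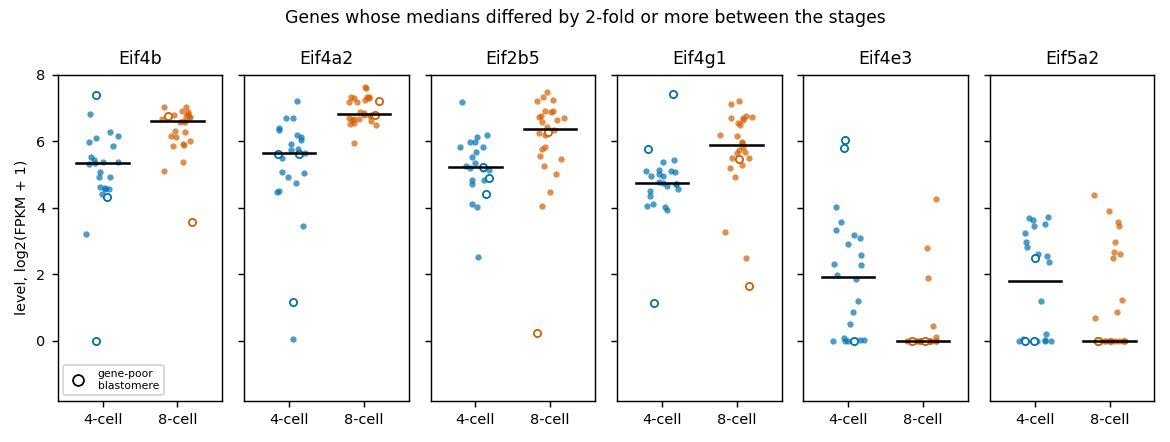
Level of the 6 genes past 2-fold in every blastomere, as log2(FPKM + 1), with the 4-cell stage in blue, the 8-cell stage in orange, open points for gene-poor blastomeres and bars for medians. Eif4b, Eif4a2, Eif2b5 and Eif4g1 are higher at the 8-cell stage with overlapping ranges, and most 8-cell points of Eif4e3 and Eif5a2 lie at 0.

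The 3 members on chromosome 16 were all among the 4 past 2-fold. Eif2b5 and Eif4g1 are 163 kilobases apart, and Eif4a2 starts 2415 kilobases beyond the end of Eif4g1. This span of 2.62 megabases holds 35 genes listed in both tables, 18 of them with a median of at least 10 FPKM at a stage. Among the 15 of these that are not initiation factor genes, 3 were higher and 2 lower by 2-fold, with a median log2 ratio of 0.27. Over the whole of chromosome 16, members and this span included, 14 of the 151 genes with such a median were higher and 12 lower. The ratios of the 15 ran from -3.82 for Tmem41a to 2.32 for Kng1. Over all 35 listed genes of the span, members and low genes included, 9 were higher (25.7%) and 3 lower (8.57%). This span was looked at after the values were seen.

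The cap-binding proteins differed in level by far more than in stage. Eif4e, the general cap-binding protein, was at 268, 548 and 940 FPKM at the 4-cell stage and at 334, 509 and 811 FPKM at the 8-cell stage, with a log2 ratio of -0.11. Eif4e1b, the paralogue known from oocytes, had a median of 0.00 FPKM at both stages. It was above 0 in 9 of 24 and 8 of 26 blastomeres, above 1 FPKM in 1 and 2, and reached 8.14 FPKM at the 4-cell and 2.70 FPKM at the 8-cell stage. By RefSeq exon lengths those highest values rest on about 118 and 112 fragments. Of the summed Eif4e and Eif4e1b FPKM, Eif4e1b made up at most 1.79% in a 4-cell and 0.546% in an 8-cell blastomere.

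Eif4e2, which binds caps without joining eIF4G well, was at 10.8, 54.7 and 75.4 FPKM at the 4-cell stage and at 19.4, 33.1 and 65.2 FPKM at the 8-cell stage. Its lowest 4-cell value was 29.4 FPKM without the gene-poor blastomeres. Its log2 ratio of -0.71 did not reach 2-fold, and 2 of the 26 8-cell blastomeres lay above the 4-cell median. Eif4e3, a cap-binding paralogue, was at 0.00, 2.75 and 65.0 FPKM at the 4-cell stage and at 0.00, 0.00 and 18.3 FPKM at the 8-cell stage. It was above 1 FPKM in 14 of 24 and 3 of 26 blastomeres, and its log2 ratio was -1.91. The 2 highest 4-cell values, 65.0 and 54.98 FPKM, came from gene-poor blastomeres, and without those blastomeres the highest was 15.3 FPKM and 12 of 21 were above 1. Eif4e3 lies on chromosome 6 from 99621879 to 99692873.

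Among the helicases, Eif4a1 was at 478, 678 and 982 FPKM at the 4-cell stage and at 225, 768 and 967 FPKM at the 8-cell stage, with a log2 ratio of 0.18. The 225 FPKM came from a gene-poor blastomere, and the lowest 8-cell value without these was 602 FPKM. Eif4a2 made up 6.31% of the summed Eif4a1 and Eif4a2 FPKM in the median 4-cell blastomere and 13.8% in the median 8-cell blastomere. Single blastomeres ran from 0.00450% to 15.5% and from 6.55% to 32.7%, so the shares overlapped. The next lowest 4-cell share was 0.199%, and without the gene-poor blastomeres the highest 8-cell share was 21.6%. Eif4a3, a helicase of the exon junction complex, was at 103, 297 and 489 FPKM and at 121, 328 and 421 FPKM, with 184 FPKM as the lowest 4-cell value once gene-poor blastomeres were left out. Eif4a3l1, annotated as a copy of it, had medians of 0.136 and 0.0779 FPKM and reached 27.5 and 19.2 FPKM. Without the gene-poor blastomeres its highest 4-cell value was 8.66 FPKM. Eif4h, a further helper of eIF4A, had medians of 141 and 205 FPKM, with 24 of 26 8-cell blastomeres above the 4-cell median and a log2 ratio of 0.54.

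Of the scaffolds, Eif4g2 (DAP5, which lacks the part that binds eIF4E) was the most abundant at both stages. It was at 63.4, 148 and 221 FPKM at the 4-cell stage and at 53.0, 169 and 272 FPKM at the 8-cell stage. Eif4g3 was at 0.00, 2.26 and 8.91 FPKM and at 0.00, 3.53 and 20.1 FPKM. Eif4g1 made up 14.7% of the 3 genes' summed FPKM in the median 4-cell blastomere and 28.03% in the median 8-cell blastomere. Eif4g2 made up 83.8% and 70.3%. The share of Eif4g1 ran from 1.22% to 55.05% at the 4-cell and from 1.81% to 42.1% at the 8-cell stage, so these shares overlapped too. Gene-poor blastomeres held both 4-cell ends and the lowest 8-cell share, and without them the shares ran from 6.81% to 32.5% and from 7.26% to 42.1%.

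The 4E-binding proteins were represented mostly by 1 gene. Eif4ebp1 was at 0.106, 259 and 490 FPKM at the 4-cell stage and at 114, 224 and 634 FPKM at the 8-cell stage, and its lowest 4-cell value came from a gene-poor blastomere, the lowest of the others being 92.6 FPKM. It made up 99.0% and 99.1% of the summed FPKM of the 3 Eif4ebp genes in the median blastomere. Eif4ebp2 had medians of 1.11 and 1.48 FPKM and reached 19.2 and 22.9 FPKM. Eif4ebp3 had medians of 0.00 FPKM and reached 7.60 and 3.69 FPKM. Eif4enif1, the eIF4E transporter of RNA granules, had medians of 8.99 and 7.40 FPKM.

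The eIF2 kinases were the group with the lowest levels. Eif2ak1 (HRI, known as the heme-regulated kinase) was at 0.00, 18.2 and 64.3 FPKM at the 4-cell stage and at 0.00, 11.4 and 45.1 FPKM at the 8-cell stage. It was above 1 FPKM in 21 blastomeres of each stage, and its lowest 4-cell value outside the gene-poor ones was 0.577 FPKM. Eif2ak3 (PERK, the kinase of the endoplasmic reticulum) had a median of 0.263 FPKM at the 4-cell and 0.00 FPKM at the 8-cell stage, and was above 1 FPKM in 9 of 24 and 2 of 26 blastomeres. Eif2ak4 (GCN2, which senses uncharged tRNA) had medians of 0.00 FPKM and was above 1 FPKM in 0 and 2 blastomeres. Eif2ak2 (PKR, which binds double-stranded RNA) was above 0 in 1 blastomere of each stage and reached 0.554 and 0.0109 FPKM. None of the 4 passed the 2-fold rule as reported, while with a pseudocount of 0.1 Eif2ak3 came to -1.86.

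The substrate and the exchange factor of these kinases were abundant. Eif2s2, the beta subunit of eIF2, was at 198, 467 and 631 FPKM at the 4-cell stage and at 401, 665 and 1449 FPKM at the 8-cell stage. The highest value came from a gene-poor blastomere, and without the 2 gene-poor blastomeres of that stage the highest was 884 FPKM. Its log2 ratio was 0.51, below the 2-fold rule, yet 25 of 26 8-cell blastomeres lay above the 4-cell median and 16 above the highest 4-cell blastomere. Eif2s1, the alpha subunit that the kinases phosphorylate, had medians of 229 and 188 FPKM, with 5 of 26 8-cell blastomeres above the 4-cell median. Eif2d, which can deliver tRNA without eIF2, was at 0.00, 38.5 and 120 FPKM and at 0.00, 60.5 and 90.0 FPKM, where all zeros were in gene-poor blastomeres and the others began at 0.118 and 6.19 FPKM. The 5 eIF2B genes had 4-cell medians from 36.1 FPKM for Eif2b5 to 304 FPKM for Eif2b1, whose range was 149 to 633 FPKM. At the 8-cell stage Eif2b1 was at 142, 322 and 534 FPKM. The catalytic subunit was thus the lowest of the 5 at both stages, with 81.7 FPKM at the 8-cell stage beside 94.3 FPKM for Eif2b2, and the ranges of neighbours in this order overlapped.

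The 12 listed eIF3 genes had 4-cell medians from 38.4 FPKM for Eif3b to 549 FPKM for Eif3g, a 14.3-fold span between subunits of 1 complex. Eif3g was at 143, 549 and 758 FPKM at the first stage and at 337, 549 and 771 FPKM at the second. Eif3b was at 1.12, 38.4 and 132 FPKM and at 3.42, 38.7 and 189 FPKM. Outside the gene-poor blastomeres the lowest values were 374 FPKM for Eif3g at the first stage, and 13.7 and 7.02 FPKM for Eif3b. The 8-cell median was the higher one for 11 of the 12 genes, among them Eif3b and Eif3m with log2 ratios of only 0.01 each, beside 47.2% of all genes with a median of at least 10 FPKM. The count was 10 without the gene-poor blastomeres, where Eif3m turned to -0.13, and 10 without the 8-cell columns named NA, where Eif3h turned to -0.07. It was 12 with either rescaling and with the mean of log2(FPKM + 1), so that Eif3g turned there too. None passed 2-fold as reported, and the median log2 ratio of the group was 0.14. The largest ratio was that of Eif3d, the subunit that can itself bind caps, at 0.00, 141 and 317 FPKM against 76.8, 264 and 387 FPKM. The 4-cell value of 0.00 was from a gene-poor blastomere, and outside these the 4-cell values began at 57.9 FPKM. Of its 26 8-cell blastomeres 24 lay above the 4-cell median and 7 above the highest 4-cell blastomere. Eif3c, a core subunit, was at 169, 305 and 420 FPKM and at 170, 352 and 578 FPKM.

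None of the 5 genes grouped under start codon selection passed the 2-fold rule. The 8-cell median was the higher one for 1 of the 5, beside 47.2% of all genes with a median of at least 10 FPKM. Eif5, the partner of eIF2 that triggers GTP hydrolysis, was at 414, 575 and 1191 FPKM at the 4-cell stage and at 286, 601 and 1130 FPKM at the 8-cell stage. Eif1, which guards start codon choice, was at 57.2, 316 and 588 FPKM and at 184, 288 and 527 FPKM, and its lowest 4-cell value was 204 FPKM outside the gene-poor blastomeres. Its paralogue Eif1b was at 0.00, 36.9 and 140 FPKM and at 0.00, 27.8 and 119 FPKM. Eif1b made up 11.9% of their sum in the median 4-cell and 7.43% in the median 8-cell blastomere, with a range that began at 0 at both stages. Outside the gene-poor blastomeres the lowest 4-cell level of Eif1b was 8.60 FPKM, so that only the 8-cell share still began at 0. Eif1a was at 44.9, 170 and 319 FPKM and at 42.5, 150 and 245 FPKM. Eif1ad is grouped here beside Eif1a, whose domain it shares, and a role of its own in start codon selection is not implied. Eif1ad was at 0.0839, 69.0 and 151 FPKM and at 7.63, 55.7 and 76.8 FPKM, with 3 of 26 8-cell blastomeres above the 4-cell median. Its lowest values were 35.6 and 16.1 FPKM without the gene-poor blastomeres. All 5 log2 ratios lay between -0.39 and 0.06. With the mean of log2(FPKM + 1), Eif1 came to 0.05 and Eif5 to -0.06.

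Of the genes of the late steps, Eif5a, whose protein carries hypusine and helps ribosomes through slow stretches, was the most abundant member at both stages. It was at 489, 759 and 1090 FPKM at the 4-cell stage and at 755, 964 and 1141 FPKM at the 8-cell stage, with 25 of 26 8-cell blastomeres above the 4-cell median and a log2 ratio of 0.34. Its paralogue Eif5a2 was at 0.00, 2.74 and 12.1 FPKM and at 0.00, 0.00 and 19.8 FPKM. Eif5a2 was above 1 FPKM in 13 of 24 and 9 of 26 blastomeres, and its log2 ratio of -1.90 turns on where the median falls between blastomeres listed at 0 and the others. Leaving out 1 blastomere moved it between -2.38 and -1.19, and with the mean of log2(FPKM + 1) it was -0.50. The gene lies on chromosome 3 from 28781032 to 28798846. Eif6, which keeps the large subunit from joining too early, was at 375, 635 and 922 FPKM and at 366, 535 and 856 FPKM. Eif5b, the factor of subunit joining, had medians of 43.9 and 33.9 FPKM.

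**Figure D3:**
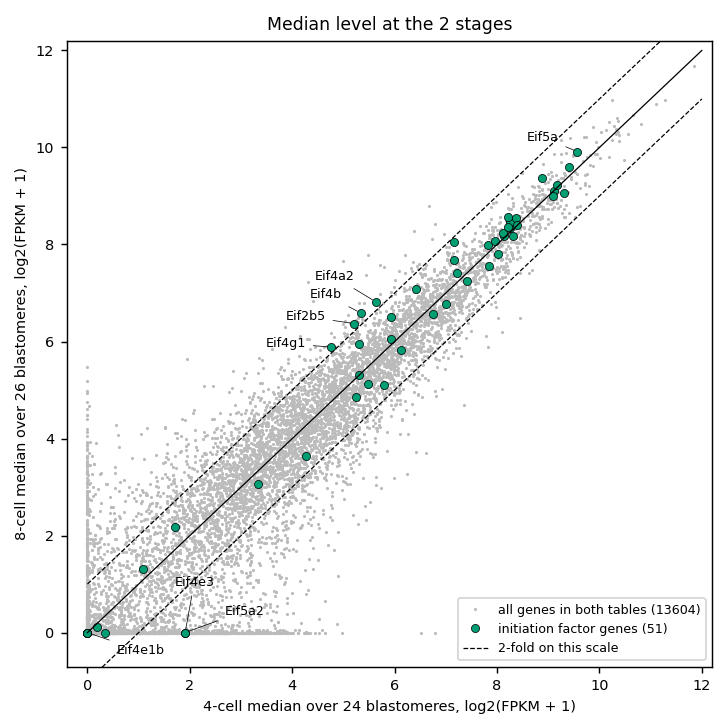
Median over the 24 4-cell blastomeres (horizontal) against the median over the 26 8-cell blastomeres (vertical), both as log2(FPKM + 1). Grey points are the 13604 genes in both tables, green points the 51 initiation factor genes, the solid line is equality and the dashed lines are 2-fold. Most green points lie between the dashed lines at high levels, 4 lie above them, and Eif4e3 and Eif5a2 lie on the horizontal axis.

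In evenness over blastomeres, measured as the interquartile range of log2(FPKM + 1), most members were more even than the typical gene. Among the 40 with a median of at least 10 FPKM the median interquartile range was 0.66 at the 4-cell stage, against 1.15 over the 4165 such genes, and 32 of the 40 lay below the latter. For 8-cell blastomeres it was 0.53 over 40 members against 1.13 over 4091 genes, and 34 lay below. Members are more abundant than these genes, with a median level of 197 against 38.7 FPKM at the 4-cell stage, and the range was smaller among abundant genes of both tables. Among genes with a median of at least 100 FPKM the values drew closer, at 0.53 for 26 members against 0.68 for 968 genes at the 4-cell stage. For 8-cell blastomeres they were 0.49 for 27 members and 0.61 for 942 genes. The spread holds embryo, lineage, cell and library together, and their parts were not separated.

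The most even member at the 4-cell stage was Eif4g2, with an interquartile range of 0.28 (quartiles of 132 and 161 FPKM), and only 0.240% of the genes with a median of at least 10 FPKM had a smaller one. Eif5 with 0.33, Eif4a1 with 0.37, Eif1 with 0.42 and Eif3g with 0.42 followed. At the 8-cell stage Eif5a was the most even with 0.26 (quartiles of 868 and 1041 FPKM), and 0.269% of the genes had a smaller one. It was followed by Eif3c with 0.29 and by Eif1, Eif4a1 and Eif3g with 0.31 each. Eif1, Eif4a1 and Eif3g were thus among the 5 most even at both stages, whereas Eif4g2 was at 0.49 at the 8-cell stage.

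The least even member at the 4-cell stage was Eif2ak1 with 2.47, with quartiles of 4.99 and 30.8 FPKM. Eif2d with 1.95, Eif1b with 1.89, Eif3b with 1.80 and Eif5b with 1.32 came next. Among 8-cell blastomeres Eif1b had 2.09, Eif2ak1 had 1.95, Eif3b had 1.53, Eif2b5 had 1.23 and Eif2d had 1.16. These genes had medians of 11.4 to 81.7 FPKM, among the lower levels of the 40. Eif1b therefore spread widely at both stages and Eif1, the more abundant gene of the pair, narrowly.

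**Figure D4:**
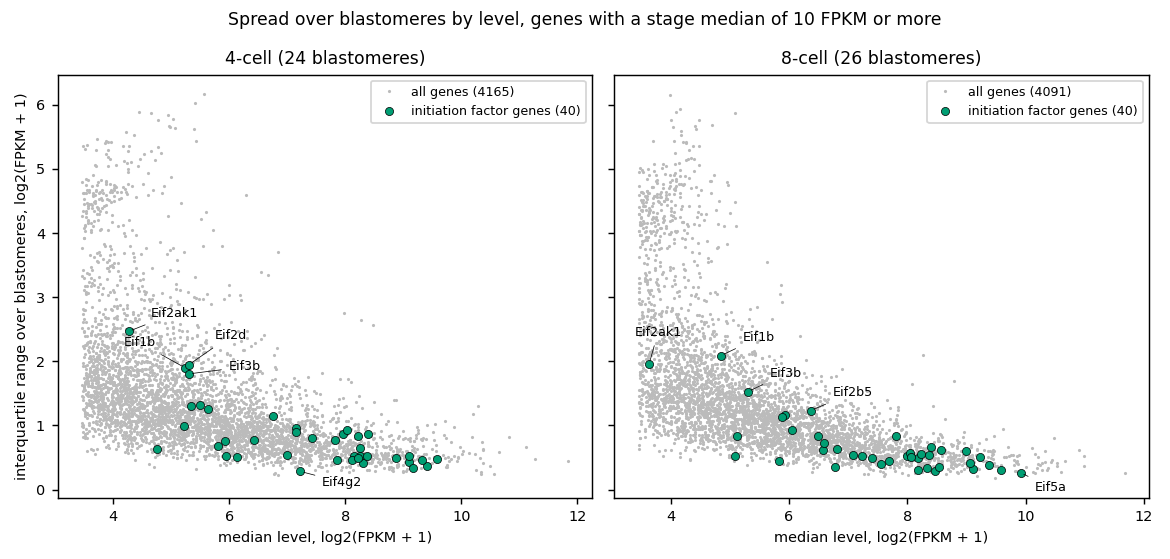
Interquartile range over blastomeres (vertical) against the median level (horizontal), both as log2(FPKM + 1), for genes with a median of at least 10 FPKM, with the 4-cell stage on the left and the 8-cell stage on the right. Grey points are all such genes (4165 and 4091) and green points the initiation factor genes (40 at each stage). The spread is smaller at higher levels, and Eif2ak1, Eif1b and Eif3b are among the 4 least even green points at both stages.

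Values at or near 0 in otherwise abundant members were gathered in few blastomeres at the 4-cell stage. Of the 40 members with a 4-cell median of at least 10 FPKM, 14, 9 and 2 were at or under 1 FPKM in the 3 gene-poor blastomeres, which had 3009, 3699 and 4939 genes above 1. In the other 21 blastomeres 19 had none and 2 had 2 each. The 14 were 6 eIF3 genes (Eif3d, Eif3e, Eif3f, Eif3h, Eif3i and Eif3l) beside Eif1ad, Eif1b, Eif2ak1, Eif2b2, Eif2b3, Eif2d, Eif4ebp1 and Eif4h. In these 3 blastomeres 50.1%, 38.8% and 17.7% of all 4165 genes of such a median were at or under 1 FPKM too. At the 8-cell stage the 2 gene-poor blastomeres had 5 and 1 such members of 40, beside 34.3% and 24.98% of all 4091 genes of such a median. The other 24 had at most 1 each and 6 in all. Of the 51 members, 23 were above 1 FPKM in each of the 24 4-cell blastomeres, and 36 were so in the 21 that were not gene-poor, against 9.93% and 19.99% of all genes. At the 8-cell stage the counts were 35 and 38, against 12.9% and 16.5%. What part library quality and the cells themselves have in these low values was not tested.

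**Figure D5:**
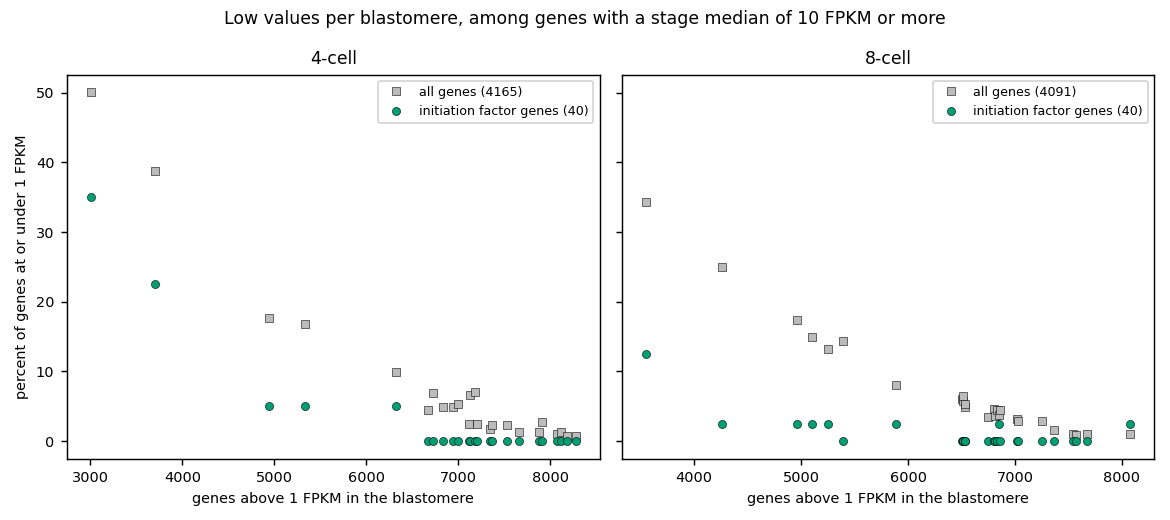
Percent of genes at or under 1 FPKM in a blastomere (vertical), among genes with a stage median of at least 10 FPKM, against the number of genes above 1 FPKM in that blastomere (horizontal). Grey squares are all such genes and green points the 40 initiation factor genes, with the 4-cell stage on the left and the 8-cell stage on the right. Both shares are highest in the blastomeres with the fewest genes, at 50.1% of all genes and 14 of the 40 members in the 4-cell blastomere with 3009 genes.

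Of 36 other genes of translation, 35 are listed in both tables, 3 were higher at the 8-cell stage by 2-fold and 2 lower. These are 8.57% and 5.71% of the 35, beside 5.23% and 9.78% of all genes. Eef2, the translocation factor of elongation, had medians of 124 and 295 FPKM and a log2 ratio of 1.24. Eef1b2, an exchange factor of eEF1A, had 86.4 and 179 FPKM and a log2 ratio of 1.04. Larp1, which binds messenger RNAs with a pyrimidine start, had 7.21 and 15.6 FPKM and a log2 ratio of 1.01. The lower ones were Mknk1, a kinase of eIF4E, with 13.95 and 0.313 FPKM and a log2 ratio of -3.51, and Pdcd4, an inhibitor of eIF4A, with 2.64 and 0.622 FPKM and a log2 ratio of -1.16. The median log2 ratio was 0.54 over the 7 elongation genes, -0.09 over the 5 of termination and recycling, 0.00 over the 11 of poly(A) binding and cytoplasmic polyadenylation, and -0.31 over the 10 of signalling to initiation. Pabpc1, the main poly(A)-binding protein and a partner of eIF4G, fell just short, with 96.8 and 191 FPKM and a log2 ratio of 0.97.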

How the data were processed

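Single blastomeres were amplified by Smart-seq2, which primes on poly(A) tails, and made into Nextera XT libraries without molecular identifiers or strand. Alignment by the authors was to mm10 with STAR 2.5.1b. From uniquely aligned reads, HTSeq-count on UCSC Refseq genes gave the counts, which were deposited as FPKM values. The study lists uniquely mapped reads per blastomere, which the column names do not tie to single columns. The lengths and read total that the authors divided by to obtain FPKM are not given in the sources used here. The stage of each table was taken from the study's numbers of genes and of resolved blastomeres. The labels hold 78 samples, but no column name matches a single one, so that blastomeres were not used as replicates. The order of the columns and their fragment estimates were not used to assign blastomeres to embryos or lineages. No column name is shared by the tables, and no columns are identical. Reads shared with near-identical copies are lost or uncertain, since 11 pseudogenes carry an Eif symbol.

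Entrez identifiers were matched to RefSeq (GRCm38.p6), which found 15200 of 15218 and 15320 of 15342. Stage change is log2(median FPKM + 1) at the 8-cell minus the 4-cell stage, with a ratio of 2-fold or more named. Evenness is the interquartile range of log2(FPKM + 1). The fragments of a blastomere were estimated from the lowest 0.3 of the values of genes with 1 curated transcript, and 90.6% to 96.4% of low values then came out within 0.1 of a whole fragment. The stage change, the interquartile range and the fragment estimate were tested on simulated data. Fragments are not independent molecules, so estimates cover counting only. Genes named singly were, in each role, those with the highest and lowest 4-cell median, then all paralogue sets, genes past 2-fold and the 5 most and least even at each stage. Further genes were named after their values were seen. Members, lists and motifs were chosen with earlier results of these data known. Analyses used Python 3.11.15 and pandas 2.3.3.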

Additional observations from a re-analysis of the deposited data

How the results depend on the processing

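No paired analysis was possible because no number pairs a blastomere of one stage with one of the other. The number of members higher at the 8-cell stage by 2-fold, 4 as reported, was 4 with a pseudocount of 0.1 and without gene-poor blastomeres. It was 5 with the listed genes of every blastomere scaled to 1 total and with size factors. It was 3 with the mean of log2(FPKM + 1) and 3 without the 8-cell columns named NA. The filter on low medians gave 4 but could remove no call, since a gene past 2-fold has a median of at least 1 FPKM. The number lower, 2 as reported, was 1 with the mean of log2(FPKM + 1) (Eif4e3), 3 with a pseudocount of 0.1 (Eif2ak3 added), and 2 in the other runs. Leaving out 1 blastomere at a time, an alternative chosen after seeing the data, kept counts of 4 and 2 in all 50 runs. The sizes of Eif4e3 and Eif5a2 depend on the pseudocount, with log2 ratios of -4.83 each at 0.1. The numbers of members with a median above 1 FPKM, 45 and 43, were 47 and 43 above 0.1 FPKM, 41 and 41 above 5 FPKM, and 42 to 45 at 1 FPKM with blastomeres left out. The members' median interquartile range lay between 0.60 and 0.67 at the 4-cell and between 0.49 and 0.56 at the 8-cell stage. Of the single members' ratios under the alternatives, 343 kept their side of 2-fold, 4 lost it, 4 gained it and none that was past 2-fold changed sign. The 343 include 45 ratios under the filter on low medians, which equal those reported by construction. With each stage treated as 1 sample, how embryos of a stage vary was not examined in these runs.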
